A study of Danio rerio with 3 samples.

Results

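The genes of the major histocompatibility complex (MHC) class II presentation pathway were examined in 3 hematopoietic cell populations of the adult zebrafish kidney. They were taken by symbol as the class II chain genes mhc2daa, mhc2dab and mhc2dbb, the invariant chain genes cd74a and cd74b, the regulators ciita and rfx5, and ifi30. The 8 symbols gave 9 of the 32057 genes in the files, since ifi30 was listed as the pair of copies ifi30a and ifi30b. The fish are labelled as wild type and carried the transgenes gata2a:GFP and runx1:mCherry, and low side scatter cells were sorted by these colors into gata2a+ runx1- cells (labelled as lymphoid-primed progenitors), gata2a+ runx1+ cells (labelled as HSCs) and gata2a- runx1+ cells (labelled as erythroid- or myeloid-primed). GFP in this line marks blood cells of several kinds as well as endothelium, and mCherry is driven by an enhancer of the mouse Runx1 gene, so that each color is a reporter and not the transcript itself. The number of fish behind each library is not given in the sources used here. cDNA was amplified by Quartz-Seq, in which transcripts are primed on their poly-A tails and copied by PCR, and 1 library was sequenced per population. No difference between populations therefore has a replicate check, and fewer cells of a type cannot be told apart from less RNA per cell.

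Class II molecules are pairs of an alpha and a beta chain that present peptides from endocytosed proteins to CD4 T cells, and they are carried mainly by B cells, macrophages and dendritic cells. As known from mammals, the invariant chain CD74 fills the peptide groove of new class II molecules and leads them to endosomes, where cathepsins degrade it and IFI30, a thiol reductase, opens the disulfide bonds of antigens. CIITA is the coactivator that switches these genes on. It does not bind DNA by itself and is recruited by a complex of RFX5, RFXAP, RFXANK, NF-Y and CREB on their promoters.

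Between 8094670 and 8205803 reads were counted per library, and levels are given in RPM, the reads of a gene per 1000000 reads counted on genes. At this depth 3 reads, taken as the floor of detection, were 0.371 RPM in the gata2a+ runx1- library, 0.369 RPM in the gata2a+ runx1+ library and 0.366 RPM in the gata2a- runx1+ library. Ranges in parentheses are 95% Wilson intervals of a level or exact 95% intervals of a ratio of reads. They cover counting error only, since PCR copies without molecular identifiers are not independent molecules. A gene was called higher or lower where its RPM differed by over 2-fold between 2 libraries, with 3 reads or fewer taken as 3 reads. Adjusted p-values come from Fisher's exact test (both sides) on the reads of a pair of libraries, adjusted by Benjamini-Hochberg over every gene with a read in the pair. Such a test speaks of the pair of libraries, not of the populations. The gata2a transcript was at 1354 RPM in the gata2a+ runx1- library, 344.4 RPM in the gata2a+ runx1+ library and 11.8 RPM in the gata2a- runx1+ library. RUNX1 had few reads and separated the libraries far less. It was at 2.35 RPM (19 reads), 4.80 RPM (39 reads) and 3.53 RPM (29 reads) in the same order.

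Of the 5 pathway genes that were read at all, the 4 genes cd74a, cd74b, mhc2daa and ciita had the same order in the libraries. Their level was highest in the gata2a+ runx1- library, intermediate in the gata2a+ runx1+ library and lowest in the gata2a- runx1+ library. Their intervals, which cover counting error only, did not overlap between any pair of libraries. For how many of all genes this holds was not counted, so that it cannot be called a trait of these genes. rfx5 had another order and was lowest in the gata2a+ runx1- library. The order of cd74a was shared by 1525 of the 6667 genes with a symbol and a mean of at least 10 RPM (22.9%). The remaining members mhc2dab, mhc2dbb, ifi30a and ifi30b had no read in any library.

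**Figure D1:**
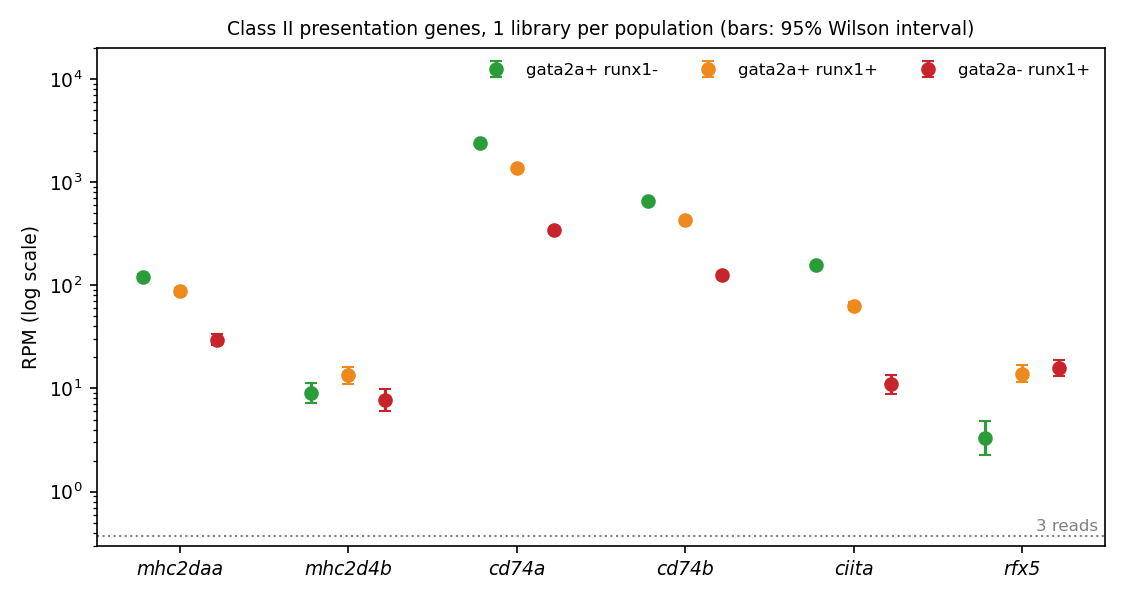
RPM on a log scale of the 5 class II presentation genes with reads and of the chain gene mhc2d4b, with 1 point per library and the 95% Wilson interval as bars. For cd74a, cd74b, mhc2daa and ciita the points step down from left to right across the populations, whereas rfx5 is lowest in the gata2a+ runx1- library and mhc2d4b is highest in the gata2a+ runx1+ library.

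Among the chain genes, mhc2daa (ENSDARG00000031745), which encodes an alpha chain, was read in each library. It had 970 reads or 119.8 RPM (112.5 to 127.6) in the gata2a+ runx1- library, 709 reads or 87.3 RPM (81.1 to 93.9) in the gata2a+ runx1+ library and 243 reads or 29.6 RPM (26.1 to 33.6) in the gata2a- runx1+ library. The gata2a+ runx1- library was thus 1.37-fold above the gata2a+ runx1+ library (1.25 to 1.51, adjusted p = 6.23e-10, Fisher's exact test), which was within the 2-fold limit. Against gata2a- runx1+ cells, mhc2daa was 4.05-fold higher in the gata2a+ runx1- library (3.51 to 4.68) and 2.95-fold higher in the gata2a+ runx1+ library (2.54 to 3.42).

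The beta chain genes mhc2dab (ENSDARG00000079105) and mhc2dbb (ENSDARG00000056330) had no read in the 3 libraries, which allows a level of up to 0.371, 0.369 and 0.366 RPM in the order of libraries given above. A count of 0 in these files does not by itself show that a gene was silent. Of 77 ribosomal protein genes, 1 had no read in any library, RPL26, and the same held for PSMA5, POLR2F and NDUFA12, which encode parts of the proteasome, RNA polymerase II and the respiratory chain (chosen after their values were seen).

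The name table held 13 further class II chain genes, and only mhc2d4b (ENSDARG00000101030) was above 6 reads. By its symbol it is a beta chain gene, and it had 73 reads or 9.02 RPM in the gata2a+ runx1- library, 109 reads or 13.4 RPM in the gata2a+ runx1+ library and 63 reads or 7.68 RPM in the gata2a- runx1+ library. It did not follow the order of mhc2daa. The gata2a+ runx1- library was at 0.672 times the level of the gata2a+ runx1+ library (0.493 to 0.912, adjusted p = 0.0194 by Fisher's exact test). It was at 1.17 times that of the gata2a- runx1+ library (0.827 to 1.67, adjusted p = 0.497 by the same test), a difference that was not detectable at this depth. The gata2a+ runx1+ library was 1.75-fold above the gata2a- runx1+ library (1.27 to 2.42, adjusted p = 0.00133, Fisher's exact test), and all 3 ratios were within the 2-fold limit.

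Of the other chain genes, mhc2bl had 5 reads in the gata2a+ runx1- library, 5 in the gata2a+ runx1+ library and 0 in the gata2a- runx1+ library, and mhc2d8.45b1 had 2, 4 and 0 reads in the same order. mhc2dcb was read only in the gata2a+ runx1+ library, with 6 reads, at least 2.02-fold more than in the gata2a- runx1+ library (adjusted p = 0.034, Fisher's exact test). Against the gata2a+ runx1- library the counts were the same, 6 reads and 0 reads, and the adjusted p was 0.0578 (Fisher's exact test). Both comparisons lie at the edge of the limits, and 6 reads are too few to tell them apart. mhc2d8.37b2 had 2 reads in the gata2a+ runx1- library, mhc2dgb had 1 read in the gata2a+ runx1+ library, and mhc2d8.46a and mhc2dga had 1 read each in the gata2a- runx1+ library. No read was counted for mhc2d8.37a1, mhc2d8.37a2, mhc2d8.35a1, mhc2dca and mhc2dhb. Of the 16 chain genes in all, 7 thus had no read in any library. The 13 further genes summed to 10.1 RPM in the gata2a+ runx1- library, 15.4 RPM in the gata2a+ runx1+ library and 7.92 RPM in the gata2a- runx1+ library.

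In the RefSeq annotation of assembly GRCz12tu, used here for neighbors only since the reads were mapped to GRCz11, mhc2dga, mhc2dgb, mhc2dhb and mhc2daa follow each other on chromosome 8. The neighbors of mhc2daa in this row thus had 0 or 1 read per library, whereas mhc2daa had 243 to 970 reads. mhc2dca and mhc2dcb are neighbors on the same chromosome, and mhc2dbb and mhc2d4b lie on chromosomes 18 and 4. Class II chain genes have similar copies, and how reads with several matches were counted is not given in the sources used here, so that the split of reads among them is uncertain.

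The invariant chain gene cd74a (ENSDARG00000009087, on chromosome 14 in GRCz12tu) had most of the reads of the members in each library. It was counted 19446 times in the gata2a+ runx1- library, which is 2402 RPM (2369 to 2436), 11099 times in the gata2a+ runx1+ library, 1366 RPM (1341 to 1392), and 2824 times in the gata2a- runx1+ library, 344.1 RPM (331.7 to 357.1). gata2a+ runx1- cells were 1.76-fold above gata2a+ runx1+ cells (1.72 to 1.80), and this ratio stayed within the 2-fold limit. Against gata2a- runx1+ cells, cd74a was 6.98-fold higher in the gata2a+ runx1- library (6.71 to 7.26) and 3.97-fold higher in the gata2a+ runx1+ library (3.81 to 4.14).

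The second invariant chain gene, cd74b (ENSDARG00000036628, on chromosome 21 in GRCz12tu), had 5351 reads or 661.1 RPM (643.6 to 679.0) in the gata2a+ runx1- library, 3466 reads or 426.7 RPM (412.7 to 441.1) in the gata2a+ runx1+ library and 1024 reads or 124.8 RPM (117.4 to 132.7) in the gata2a- runx1+ library. Its ratio of gata2a+ runx1- over gata2a+ runx1+ cells was 1.55 (1.48 to 1.62). Over gata2a- runx1+ cells it was 5.30-fold higher in the gata2a+ runx1- library (4.95 to 5.67) and 3.42-fold higher in the gata2a+ runx1+ library (3.19 to 3.67).

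Both copies thus moved alike in these 3 libraries, but within counting error not by the same factor. cd74a held 78.4% (77.9 to 78.9) of the 24797 reads of both copies in the gata2a+ runx1- library, 76.2% (75.5 to 76.9) of 14565 reads in the gata2a+ runx1+ library and 73.4% (72.0 to 74.8) of 3848 reads in the gata2a- runx1+ library. The fold of cd74a was 1.13 times that of cd74b for gata2a+ runx1- over gata2a+ runx1+ cells (1.08 to 1.19), 1.32 times for gata2a+ runx1- over gata2a- runx1+ cells (1.22 to 1.42) and 1.16 times for gata2a+ runx1+ over gata2a- runx1+ cells (1.07 to 1.26). Intervals of a ratio of folds are 95% intervals on the log scale from the 4 read numbers behind it. They cover counting error only and leave out differences in PCR copying between genes, which no replicate checks. Such ratios do not depend on how the libraries were scaled.

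The coactivator gene ciita (ENSDARG00000090851) differed the most of the members between gata2a- runx1+ cells and each of the other populations. It had 1271 reads or 157.0 RPM (148.6 to 165.9) in the gata2a+ runx1- library, 507 reads or 62.4 RPM (57.2 to 68.1) in the gata2a+ runx1+ library and 90 reads or 11.0 RPM (8.92 to 13.5) in the gata2a- runx1+ library. It was the only member over 2-fold higher in the gata2a+ runx1- than in the gata2a+ runx1+ library, by 2.52-fold (2.27 to 2.79, adjusted p = 1.08e-74, Fisher's exact test). Over gata2a- runx1+ cells, it was 14.3-fold higher in the gata2a+ runx1- library (11.6 to 17.9) and 5.69-fold higher in the gata2a+ runx1+ library (4.54 to 7.20).

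The span of ciita over these libraries was wider than that of the genes it is known to switch on. For gata2a+ runx1- over gata2a- runx1+ cells, its fold was 2.05 times that of cd74a (1.65 to 2.55), 2.70 times that of cd74b (2.16 to 3.38) and 3.54 times that of mhc2daa (2.74 to 4.57). For gata2a+ runx1- over gata2a+ runx1+ cells the ratio was 1.43 to cd74a (1.29 to 1.59) and 1.83 to mhc2daa (1.59 to 2.11). For gata2a+ runx1+ over gata2a- runx1+ cells it was 1.43 to cd74a (1.14 to 1.80) and 1.93 to mhc2daa (1.48 to 2.52). None of these intervals, which cover counting error only, included 1. The fold of cd74b was 1.16 times that of mhc2daa for gata2a+ runx1+ over gata2a- runx1+ cells (0.987 to 1.36), and these folds could not be told apart there within counting error.

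**Figure D2:**
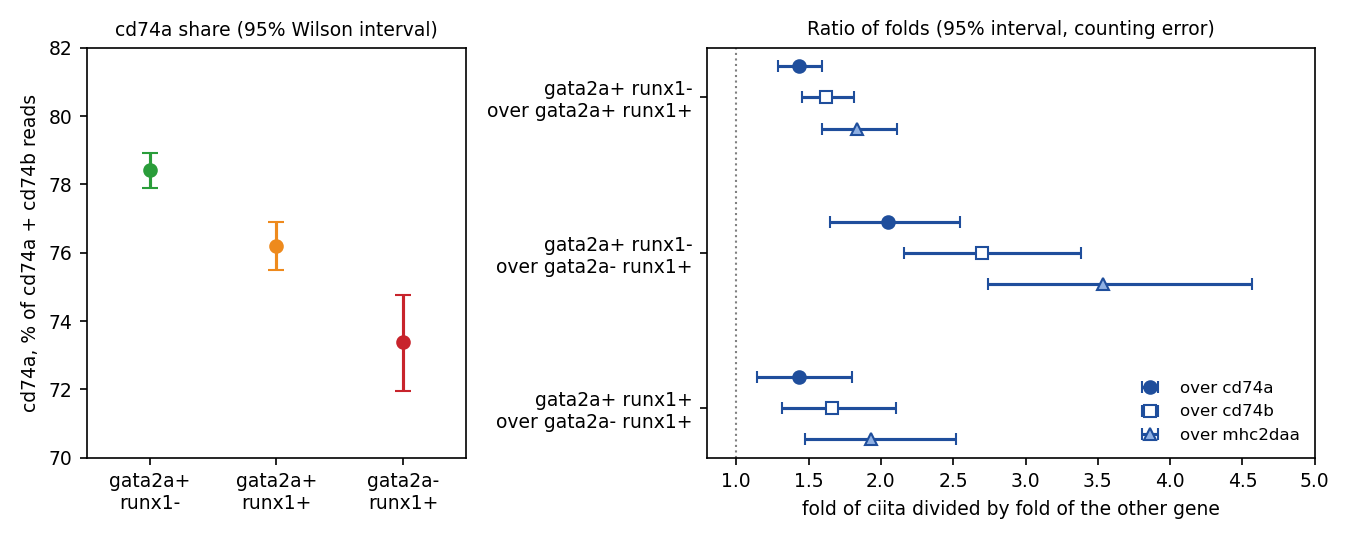
Left, the share of cd74a among the reads of cd74a and cd74b in each library, in percent with 95% Wilson intervals on an axis from 70 to 82%, is 78.4% in the gata2a+ runx1- library, 76.2% in the gata2a+ runx1+ library and 73.4% in the gata2a- runx1+ library. Right, the fold of ciita divided by the fold of cd74a, cd74b or mhc2daa in each comparison, with 95% intervals of counting error, lies above 1 (dotted line) throughout.

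rfx5 (ENSDARG00000063258), which encodes the DNA-binding partner of CIITA, went the other way. It had 27 reads or 3.34 RPM (2.29 to 4.85) in the gata2a+ runx1- library, 113 reads or 13.9 RPM (11.6 to 16.7) in the gata2a+ runx1+ library and 129 reads or 15.7 RPM (13.2 to 18.7) in the gata2a- runx1+ library. It was 4.17-fold lower in the gata2a+ runx1- than in the gata2a+ runx1+ library (2.72 to 6.60, adjusted p = 6.34e-13 by Fisher's exact test) and 4.71-fold lower than in the gata2a- runx1+ library (3.09 to 7.43, adjusted p = 2.69e-16). For the gata2a+ runx1+ over the gata2a- runx1+ library, the ratio was 0.885 and no difference could be detected with these reads (0.681 to 1.15, adjusted p = 0.501, Fisher's exact test). The library with the most ciita reads was thus the one with the fewest rfx5 reads.

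Set against all genes, the members were read as follows. For gata2a+ runx1- over gata2a+ runx1+ cells, 1 of the 5 members with over 3 reads was higher (ciita), 1 was lower (rfx5) and 3 were within 2-fold, where 24.0% of 15724 genes were higher and 20.5% were lower. Ranked by the difference of log2(RPM + 1) among the 12339 genes that averaged 1 RPM or more, the percentile was 85.9 for ciita, 77.5 for cd74a, 73.3 for cd74b, 68.4 for mhc2daa and 6.95 for rfx5. For gata2a+ runx1- over gata2a- runx1+ cells, 4 of 5 were higher and 1 was lower, against 29.0% and 20.1% of 15375 genes, and the percentiles were 97.6 for ciita, 94.6 for cd74a, 92.3 for cd74b, 88.6 for mhc2daa and 5.34 for rfx5. For gata2a+ runx1+ over gata2a- runx1+ cells, 4 of 5 were higher and none was lower, against 23.5% and 13.5% of 14886 genes, and the percentiles were 97.5 for ciita, 95.1 for cd74a, 93.5 for cd74b, 91.5 for mhc2daa and 36.6 for rfx5. The median log2 fold of the 5 members was 0.63 in the first comparison, 2.41 in the second and 1.77 in the third, beside -0.03, 0.10 and 0.14 for all genes. The 3 comparisons share libraries and are not independent of each other.

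**Figure D3:**
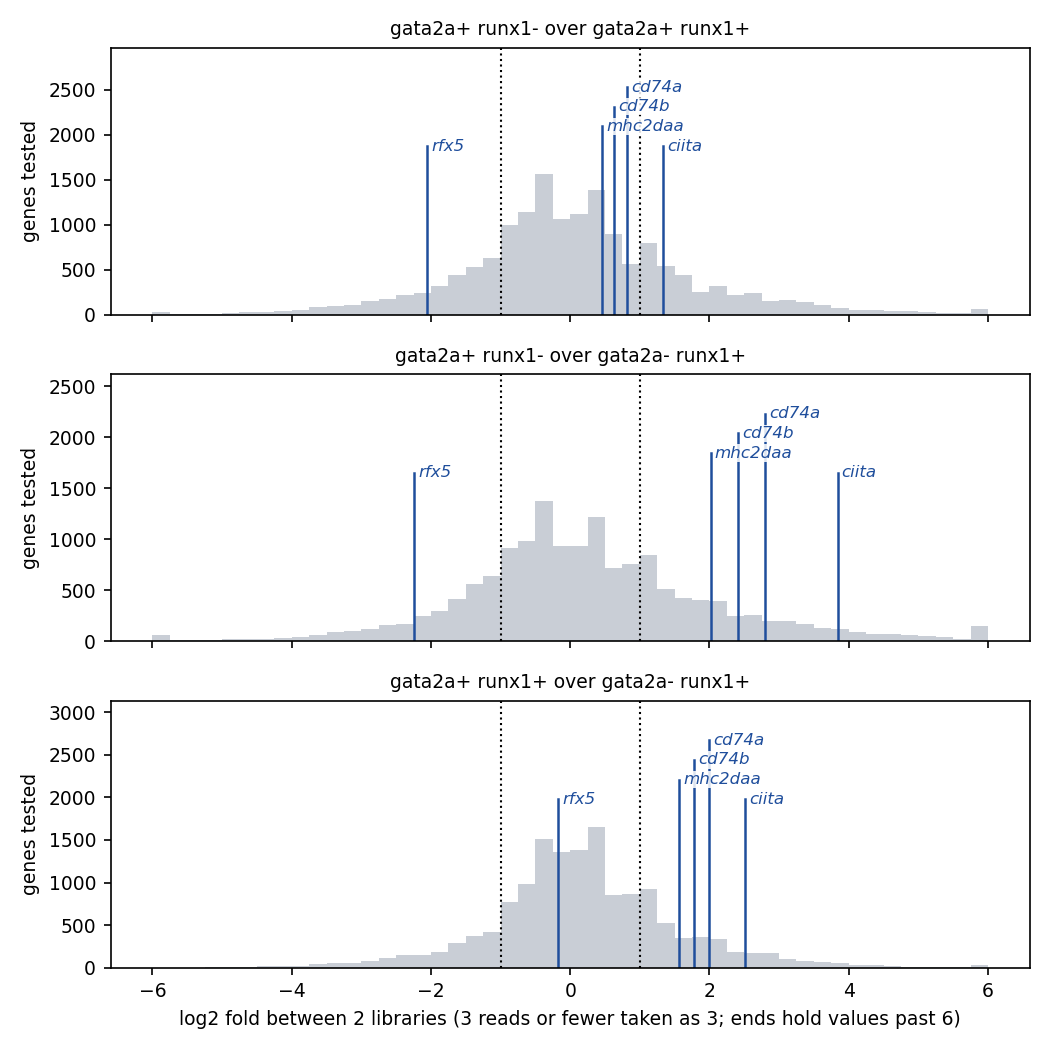
Histograms of the log2 fold of all genes with over 3 reads in either library, 1 panel per comparison, with the members as blue lines and the 2-fold limits as dotted lines. In the upper panel only ciita and rfx5 lie outside the limits, whereas in the middle panel all 5 members do, and in the lower panel all but rfx5.

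The other parts of the complex that recruits CIITA were mostly within 2-fold. Of the 8 genes of this list with over 3 reads, none was past 2-fold between gata2a+ runx1- and gata2a+ runx1+ cells, where 24.0% of all genes were higher and 20.5% lower. Nor was any between gata2a+ runx1+ and gata2a- runx1+ cells, where 23.5% of all genes were higher and 13.5% lower. For gata2a+ runx1- over gata2a- runx1+ cells none was higher and 1 was lower, against 29.0% and 20.1% of all genes. The lower one was a copy of NFYA with 4 against 9 reads (adjusted p = 0.353, Fisher's exact test). RFXANK was at 14.5 RPM in the gata2a+ runx1- library, 13.9 RPM in the gata2a+ runx1+ library and 22.6 RPM in the gata2a- runx1+ library, and RFXAP was listed at 0. The CREB gene creb1a came nearest to rfx5, with 31.4 RPM in the gata2a+ runx1- library, 57.0 RPM in the gata2a+ runx1+ library and 58.5 RPM in the gata2a- runx1+ library. The other CREB gene, CREB1, was at 24.1, 27.1 and 40.2 RPM in the same order. Among the NF-Y subunits, nfybb was at 8.15, 14.2 and 9.51 RPM and NFYB at 10.1, 8.12 and 5.85 RPM. The median difference of log2(RPM + 1) over the 7 genes of the list that averaged 1 RPM or more was -0.06, -0.20 and -0.04 in the 3 comparisons, beside -0.05, 0.01 and 0.07 over all 12339 genes at this mean.

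Interferon gamma is known to induce CIITA through the kinases JAK1 and JAK2 and the transcription factor IRF1. Of the 10 genes listed for this axis with over 3 reads in either library, 5 were higher and none was lower in the gata2a+ runx1- than in the gata2a+ runx1+ library, where 24.0% of all genes were higher and 20.5% lower. Beside IRF8, SOCS1 and JAK1, the higher genes were irf1b and ifngr1l, both with few reads. irf1b had 20 reads in the gata2a+ runx1- library, 8 in the gata2a+ runx1+ library and 20 in the gata2a- runx1+ library. ifngr1l had 17, 0 and 1 reads in this order, and the other IRF1 gene, irf1a, had 4, 5 and 3. The median difference of log2(RPM + 1) was 0.98 over the 7 listed genes that averaged 1 RPM or more, but 0.33 over all 13 listed genes without this minimum. The largest was IRF8, a transcription factor of macrophages, dendritic cells and B cells, with 358.9 RPM in the gata2a+ runx1- library, 20.1 RPM in the gata2a+ runx1+ library and 20.4 RPM in the gata2a- runx1+ library. SOCS1, an inhibitor of the pathway, was at 10.9 RPM in the gata2a+ runx1- library, 2.22 RPM in the gata2a+ runx1+ library and 4.27 RPM in the gata2a- runx1+ library, and JAK1 was at 3.58, 1.23 and 1.46 RPM. These 3 genes were over 2-fold higher in the gata2a+ runx1- than in the gata2a+ runx1+ library but did not follow cd74a further, since gata2a+ runx1+ cells were within 2-fold of gata2a- runx1+ cells in each.

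jak2a was at 363.7 RPM in the gata2a+ runx1- library, 183.3 RPM in the gata2a+ runx1+ library and 377.3 RPM in the gata2a- runx1+ library, and was thus lowest in the middle population of the cd74a order. For gata2a+ runx1- over gata2a- runx1+ cells, 4 of 10 listed genes were higher and none was lower, against 29.0% and 20.1% of all genes, and for gata2a+ runx1+ over gata2a- runx1+ cells, none of 8 was higher and 2 were lower (jak2a and irf1b), against 23.5% and 13.5%. The ligand gene ifng1 was listed at 0.

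In the endosome, ifi30a (ENSDARG00000056378) and ifi30b (ENSDARG00000075629) had no read in any library, whereas most of the proteases were read. The list of proteases also held the cystatin gene cst14b.1 and copies of ASAH1, which do not encode proteases. The counts, medians and sum of the list include them. Of 16 genes of this list with over 3 reads, 10 were higher (62.5%) and none was lower in the gata2a+ runx1- than in the gata2a+ runx1+ library, against 24.0% and 20.5% of all genes, with a median difference of log2(RPM + 1) of 1.04. Over gata2a- runx1+ cells, 12 of 16 were higher (75.0%) and none was lower in the gata2a+ runx1- library (median 1.38), against 29.0% and 20.1% of all genes. In the gata2a+ runx1+ library 3 of 16 were higher and 3 lower than in the gata2a- runx1+ library (18.8% each, median 0.41), which is near the 23.5% and 13.5% of all genes. The summed level of the list was 1346 RPM in the gata2a+ runx1- library, 625.3 RPM in the gata2a+ runx1+ library and 532.8 RPM in the gata2a- runx1+ library.

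Cathepsin S is the protease known to trim the invariant chain in mammals, and its zebrafish copies did not move alike. ctss2.2 was at 73.1 RPM in the gata2a+ runx1- library, 24.6 RPM in the gata2a+ runx1+ library and 13.2 RPM in the gata2a- runx1+ library, the order of cd74a. ctss2.1 had this order too, at 65.7, 52.2 and 29.5 RPM. ctss1 was at 47.6 RPM in the gata2a+ runx1- library, 2.71 RPM in the gata2a+ runx1+ library and 30.6 RPM in the gata2a- runx1+ library, and was thus 17.6-fold higher in the gata2a+ runx1- than in the gata2a+ runx1+ library (11.4 to 28.4) but lower in the gata2a+ runx1+ than in the gata2a- runx1+ library. The cathepsin B gene ctsbb had the same form, with 27.9 RPM in the gata2a+ runx1- library, no read in the gata2a+ runx1+ library and 2.68 RPM in the gata2a- runx1+ library. The other cathepsin B gene, CTSB, had more reads and the order of cd74a, at 193.0, 101.2 and 64.3 RPM. cst14b.1, a cystatin gene and thus of a family that inhibits such proteases, was at 139.0 RPM in the gata2a+ runx1- library, 26.3 RPM in the gata2a+ runx1+ library and 0.487 RPM in the gata2a- runx1+ library.

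The MHC class I pathway, which presents peptides from the cytosol in nearly all cells, was mostly within 2-fold between gata2a+ runx1- and gata2a+ runx1+ cells. Of 25 genes with over 3 reads, 4 were higher (16.0%), 2 lower and 19 within 2-fold between these libraries, against 24.0% higher and 20.5% lower of all genes, with a median difference of log2(RPM + 1) of -0.10. Over gata2a- runx1+ cells, 10 of 25 were higher (40.0%) and none lower in the gata2a+ runx1- library (median 0.72), against 29.0% and 20.1% of all genes. In the gata2a+ runx1+ library 7 of 25 were higher (28.0%) and none lower than in the gata2a- runx1+ library (median 0.71), and the share of higher genes was thus near the 23.5% of all genes, of which 13.5% were lower. The 4 higher genes included the chaperone genes CALR, with 722.8 RPM in the gata2a+ runx1- library, 159.9 RPM in the gata2a+ runx1+ library and 37.5 RPM in the gata2a- runx1+ library, and calr3a, with 1815, 424.4 and 179.5 RPM. The proteasome subunit gene psmb12 was at 51.6, 19.0 and 23.5 RPM in the same order. The class I chain gene mhc1zaa was highest in the gata2a+ runx1+ library, with 0.988 RPM in the gata2a+ runx1- library, 4.80 RPM in the gata2a+ runx1+ library and 0.122 RPM, a single read, in the gata2a- runx1+ library. The chain genes mhc1uba, at 2064, 2845 and 1722 RPM, and mhc1zba, at 867.7, 1395 and 734.0 RPM, had more reads and were also highest there. mhc1zea was not, at 118.3, 124.5 and 146.0 RPM. Beside mhc1zaa the lower gene was b2ml, at 339.1, 712.5 and 434.3 RPM. Of the costimulation list only 6 of 12 symbols were found, so that it is given by its genes alone. cd83 was at 23.3 RPM in the gata2a+ runx1- library, 10.2 RPM in the gata2a+ runx1+ library and 11.1 RPM in the gata2a- runx1+ library. The receptor gene cd40 was at 17.9, 29.2 and 31.1 RPM and MARCHF8, a ubiquitin ligase gene, at 11.5, 12.2 and 4.75 RPM.

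Because B cells, macrophages and dendritic cells carry class II molecules, their marker genes were set beside the members. B cell markers summed to 2656 RPM in the gata2a+ runx1- library, 248.3 RPM in the gata2a+ runx1+ library and 109.6 RPM in the gata2a- runx1+ library, and 1, 5 and 8 of their 15 genes had no read. The immunoglobulin gene ighm was at 2023 RPM in the gata2a+ runx1- library, 64.9 RPM in the gata2a+ runx1+ library and 11.2 RPM in the gata2a- runx1+ library, and cd79a, a part of the B cell receptor, was at 153.8, 6.03 and 2.19 RPM. BTK, a kinase of B cells that myeloid cells also use, was at 84.9, 83.6 and 67.4 RPM. PAX5, which defines the B lineage, was at 31.9 RPM in the gata2a+ runx1- library and had no read in the other two libraries. BCL11A, a transcription factor that is not limited to B cells, was highest in the gata2a+ runx1+ library, with 10.6 RPM in the gata2a+ runx1- library, 87.8 RPM in the gata2a+ runx1+ library and 25.3 RPM in the gata2a- runx1+ library. Of 14 B cell markers with over 3 reads, 11 were higher, 1 was lower (BCL11A) and 2 were within 2-fold in the gata2a+ runx1- library against the gata2a+ runx1+ library, where 24.0% of all genes were higher and 20.5% lower.

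Over all genes of each list, the 9 members summed to 3344 RPM in the gata2a+ runx1- library, 1957 RPM in the gata2a+ runx1+ library and 525.2 RPM in the gata2a- runx1+ library. The sum of the members in the gata2a+ runx1+ library was 58.5% of that in the gata2a+ runx1- library, and their sum in the gata2a- runx1+ library was 15.7% of it. The same shares were 9.35% and 4.13% for the B cell markers and 37.4% and 12.9% for the dendritic cell markers. They were 13.3% and 1.49% for the T and NK cell markers and 257% and 52.1% for the macrophage markers. These shares rest on few genes. In the gata2a+ runx1+ library, csf1rb was 485.7 of the macrophage sum of 608.7 RPM, and ID2 was 132.8 of the dendritic cell sum of 169.1 RPM. In the gata2a+ runx1- library, IRF8 was 358.9 of the dendritic cell sum of 452.5 RPM. Not limited to B cells, BTK and BCL11A were at 83.6 and 87.8 RPM of the B cell sum of 248.3 RPM in the gata2a+ runx1+ library. In the gata2a- runx1+ library they were at 67.4 and 25.3 of 109.6 RPM. Most of the members' sum was cd74a in each library, and most of the B cell sum was ighm in the gata2a+ runx1- library only.

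Macrophage markers summed to 237.2 RPM in the gata2a+ runx1- library, 608.7 RPM in the gata2a+ runx1+ library and 123.6 RPM in the gata2a- runx1+ library, and 4, 5 and 9 of their 22 genes had no read. Most of the sum in the gata2a+ runx1+ library came from csf1rb, a copy of the receptor gene for macrophage colony stimulating factor, with 36.7 RPM in the gata2a+ runx1- library, 485.7 RPM in the gata2a+ runx1+ library and 48.0 RPM in the gata2a- runx1+ library. cd68 was at 114.5, 88.5 and 63.2 RPM and ms4a17a.10 at 27.8, 7.39 and 1.83 RPM in the same order. The other copy of the receptor gene, csf1ra, had 25, 8 and 0 reads in this order. Of 17 macrophage markers with over 3 reads, 10 were higher and 2 lower in the gata2a+ runx1- than in the gata2a+ runx1+ library, against 24.0% and 20.5% of all genes. The 2 lower ones were csf1rb and a copy of MFAP4 (ENSDARG00000111491) with 0 reads in the gata2a+ runx1- library and 9 reads in the gata2a+ runx1+ library.

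Dendritic cell markers summed to 452.5 RPM in the gata2a+ runx1- library, 169.1 RPM in the gata2a+ runx1+ library and 58.4 RPM in the gata2a- runx1+ library, with no read for 3, 4 and 3 of 10 genes. IRF8, which is also in the interferon list, made up most of the sum in the gata2a+ runx1- library. Most of the sum in the gata2a+ runx1+ library was ID2. ID2 was at 68.3 RPM in the gata2a+ runx1- library, 132.8 RPM in the gata2a+ runx1+ library and 32.4 RPM in the gata2a- runx1+ library, and ZBTB46, a defining gene of this lineage, at 9.88, 11.9 and 3.53 RPM. Of 7 dendritic cell markers with over 3 reads, 4 were higher and none was lower in the gata2a+ runx1- than in the gata2a+ runx1+ library, against 24.0% and 20.5% of all genes. ID2, ZBTB46 and CCR7 were within 2-fold. The higher ones were IRF8, flt3 with 20 reads in the gata2a+ runx1- library and 1 read in the gata2a+ runx1+ library, id2b with 55 and 0 reads, and itgae.1 with 26 reads and 1 read in the same order. Over the gata2a- runx1+ library, the gata2a+ runx1- library had 12 of 14 B cell markers higher and 1 lower. It had 13 of 16 macrophage and 7 of 8 dendritic cell markers higher and none lower. Of all genes, 29.0% were higher and 20.1% lower. In the gata2a+ runx1+ library 5 of 7, 9 of 13 and 3 of 6 were higher and 1, 2 and 1 lower in the same order of lists, against 23.5% and 13.5%. The part of any of these cells in the levels of the members was not tested.

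T and NK cell markers summed to 49.2 RPM in the gata2a+ runx1- library, 6.52 RPM in the gata2a+ runx1+ library and 0.731 RPM in the gata2a- runx1+ library, with no read for 0, 5 and 6 of 9 genes. The highest were il7r, at 18.0, 2.34 and 0.244 RPM in this order, ZAP70 at 15.7, 3.45 and 0.244 RPM, and nkl.3 at 8.15, 0 and 0 RPM. Of 6 T and NK cell markers with over 3 reads, 5 were higher and none was lower in the gata2a+ runx1- than in the gata2a+ runx1+ library, against 24.0% and 20.5% of all genes. The sum of the erythroid and thrombocyte markers ran the other way, with 34.2 RPM in the gata2a+ runx1- library, 393.4 RPM in the gata2a+ runx1+ library and 3502 RPM in the gata2a- runx1+ library and no read for 4, 2 and 2 of 11 genes. Of 9 such genes with over 3 reads, 1 was higher and 8 were lower in the gata2a+ runx1- than in the gata2a+ runx1+ library, against 24.0% and 20.5% of all genes. The higher one was THBS1, at 23.5, 0.492 and 98.0 RPM in the same order. mpl was highest in the gata2a+ runx1+ library, at 0.247, 5.91 and 2.92 RPM. The anion exchanger gene SLC4A1, most of the sum in the gata2a- runx1+ library, was at 4.20, 267.5 and 2463 RPM. The integrin gene itga2b was at 0.371, 37.8 and 367.5 RPM, and GP1BB at 5.07, 24.7 and 171.3 RPM. The library with the fewest cd74a reads was thus the one with the most erythroid and thrombocyte transcripts, and since RPM are shares of a library, the part of these transcripts in the lower share of cd74a was not tested. When the top 20 genes of each library by reads were left out of the totals, the log2 folds of all genes moved by -0.03, -0.06 and -0.03.

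**Figure D4:**
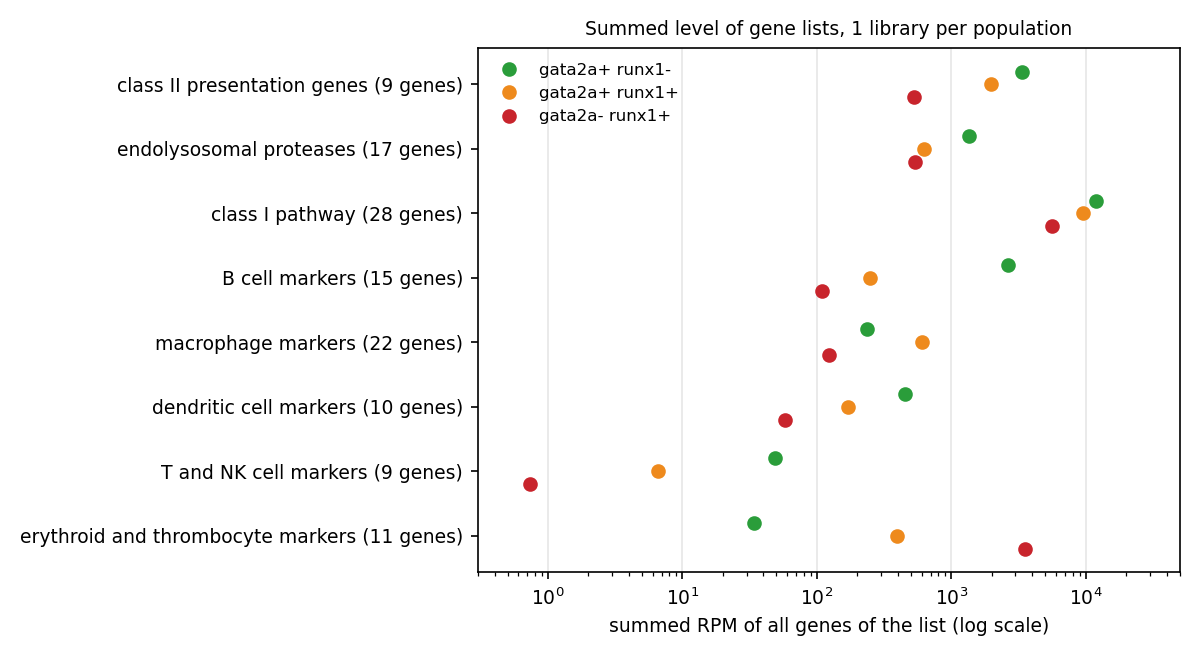
Summed RPM on a log scale of all genes of each list, with 1 point per library and the number of genes beside the name of the list. The class II presentation genes step down from 3344 RPM in the gata2a+ runx1- library over 1957 RPM in the gata2a+ runx1+ library to 525.2 RPM in the gata2a- runx1+ library. The sum of the macrophage markers is highest in the gata2a+ runx1+ library, where csf1rb alone is 485.7 of 608.7 RPM. Of 17 macrophage markers, 10 were higher and 2 lower in the gata2a+ runx1- than in the gata2a+ runx1+ library. The sum of the erythroid and thrombocyte markers is highest in the gata2a- runx1+ library.

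The genes whose pattern was most like that of the invariant chains were sought among the 6666 other genes with a symbol and a mean of at least 10 RPM, by the Euclidean distance of centred log2(RPM + 1) over the 3 libraries. Nearest to cd74a was rxrga, a retinoid X receptor gene, at a distance of 0.0368, with 49.7 RPM in the gata2a+ runx1- library, 26.8 RPM in the gata2a+ runx1+ library and 6.09 RPM in the gata2a- runx1+ library. It was followed by zgc:162730, at 1223, 649.2 and 171.5 RPM in this order, lrmp, at 86.2, 50.6 and 10.7 RPM, the calreticulin gene calr3b, at 26.9, 14.3 and 3.29 RPM, and the matrix metalloprotease gene MMP2, at 24.2, 12.4 and 2.80 RPM. cd74b was at rank 25, mhc2daa at rank 107, ciita at rank 150 and rfx5 at rank 6267.

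Nearest to cd74b was VASP, a gene of the actin cytoskeleton, at a distance of 0.0336, with 70.8 RPM in the gata2a+ runx1- library, 43.9 RPM in the gata2a+ runx1+ library and 12.6 RPM in the gata2a- runx1+ library. olfm4l2 followed at 18.9, 10.7 and 2.68 RPM, fli1rs at 476.1, 330.3 and 98.7 RPM, ID3, an inhibitor of DNA binding, at 17.3, 10.7 and 2.80 RPM, and GALT, an enzyme gene of galactose metabolism, at 39.5, 22.2 and 6.58 RPM in the same order. cd74a was at rank 27, mhc2daa at rank 29, ciita at rank 575 and rfx5 at rank 6230. With 3 libraries such distances rest on 3 points per gene, and many genes lie close to any one pattern.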

How the data were processed

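RNA was measured in 3 sorted populations of the adult zebrafish kidney, with 1 library each. The authors amplified cDNA by Quartz-Seq, used HISAT2 2.1.0 to map reads to GRCz11, and calculated RPM, the reads of a gene per 1000000 reads counted on genes, with Subread 1.6.4, and the deposited RPM values are rounded to 2 decimals. The annotation release, the use of strand and the counting of reads with several matches are not given in the sources used here, so that overlapping, antisense and near-identical genes are uncertain. Since every value of the 32057 genes was a whole multiple of 1 read (100% within 0.0051 RPM), the reads behind the RPM were recovered, and they summed to 8094670 reads in the gata2a+ runx1- library, 8123636 reads in the gata2a+ runx1+ library and 8205803 reads in the gata2a- runx1+ library.

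The members, the gene lists and the tests were chosen with earlier results of these data known. Symbols came from a table of gene names and the study's own list, which named 28988 genes, with human-style symbols and RefSeq synonyms as further matches. The main value was the ratio of RPM between 2 libraries, with 3 reads or fewer taken as 3 reads, over genes with over 3 reads in either library and a limit of 2-fold. Reads were compared by Fisher's exact test (scipy 1.17.1). Given 1 library per population no count model could be fitted, and TMM factors of edgeR 4.0.16 and size factors of DESeq2 1.42.0 (run under R 4.3.3) served as alternative scalings only. The recovery of reads, the calls by the 2-fold limit with an adjusted p, and the intervals of a ratio of reads were tested on simulated data. The other steps were not.

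The genes named are the members, all other class II chain genes, the 4 genes of each pathway list with the largest log2 ratio of RPM + 1, gata2a+ runx1- over gata2a+ runx1+, at a mean of at least 1 RPM, the 3 genes of each marker list with the highest mean RPM, and the 5 genes nearest to cd74a and to cd74b. RFXANK, RFXAP, NFYA, irf1b, ifng1, PAX5, BCL11A, a copy of MFAP4, flt3, id2b, itgae.1, CCR7, RPL26, PSMA5, POLR2F and NDUFA12 were named outside this rule, after their values were seen. The same holds for ASAH1, THBS1, mpl, ctss2.1, CTSB, csf1ra, irf1a, ifngr1l, mhc1uba, mhc1zba, mhc1zea and b2ml. gata2a and RUNX1 were named as a check of the sort. Of the symbols kept in each list, 8 of 8 were found for the complex that recruits CIITA, 15 of 15 for interferon gamma, 16 of 17 for the proteases, 28 of 33 for class I, 14 of 16 for B cells, 15 of 16 for macrophages, 10 of 12 for dendritic cells, 9 of 11 for T and NK cells and 10 of 11 for erythroid cells and thrombocytes. Some genes of the interferon gamma pathway are not reported here, so that the counts and medians are those of the listed genes and not of the whole pathway. No sequence was printed, and the qPCR and cell assays of the study were not analysed here.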

Additional observations from a re-analysis of the deposited data

How the results depend on the processing

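No paired analysis was possible because each population has 1 library, and for the same reason no replicate could be left out. The 15 folds of the 5 members with reads were recomputed under TMM scaling, the size factors of DESeq2, totals without the 20 genes with the most reads, floors of 1 and 10 reads, and pseudocounts of 0.1 and 1, and in all 105 recomputed values the direction and the side of the 2-fold limit were the same. The 15 tests of their reads fell on the same side of 0.05 with an exact conditional binomial test. The DESeq2 size factors moved every log2 fold by 0.10, 0.03 and -0.08 in the 3 comparisons, and TMM by 0.07, 0.01 and -0.06. Of the recomputed list medians, 168 moved by less than 1.5 times and 42 by more, all but 2 of them of marker lists, and those 2 of the costimulation and interferon gamma lists. The sign changed in 4, of which the largest was the dendritic cell list for gata2a+ runx1- over gata2a+ runx1+, at -0.25 with a minimum mean of 5 RPM against 0.83, and the others were small medians, between -0.10 and -0.06 as reported.

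Counts over all genes depended on the limits by construction. At a 4-fold limit, 1738 genes were higher and 1307 lower in gata2a+ runx1- than in gata2a+ runx1+ cells, 2266 higher and 1187 lower in gata2a+ runx1- than in gata2a- runx1+ cells, and 1337 higher and 729 lower in gata2a+ runx1+ than in gata2a- runx1+ cells. At a 1.5-fold limit, 4958, 4656 and 3435 genes were lower in these comparisons. With a minimum of 5 RPM in either library, 1880 were higher and 1742 lower of 9421 genes in the first comparison, 2339 and 1872 of 9334 in the second, and 1530 and 981 of 8906 in the third. For the chain genes other than mhc2daa and mhc2d4b, 6 reads or fewer were counted per library, which limits any comparison of them. The reason for these low counts was not tested.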
